A study of Mus musculus with 6 samples.

Results

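The stomatin, flotillin and caveolin genes encode membrane proteins that assemble into cholesterol-rich microdomains, and 8 of them, Stom, Stoml1, Stoml2, Stoml3, Flot1, Flot2, Cav1 and Cav2, were followed among 22180 measured genes. A gene stands here for 1 probe set, namely that of the highest 6-array mean if several with a single symbol exist. The set was chosen for the large difference of Stom between the groups compared below, so the members' differences are given as a description and without p-values. The samples were KP1 cells, a mouse small cell lung cancer line derived from a model lacking Rb, p53 and p130, which both groups share. The control group (3 arrays) had been transfected with an empty ires-GFP vector, and the N1ICD group (3 arrays) with Notch1-ICD-ires-GFP, which carries the intracellular, active part of the Notch1 receptor. GFP-positive cells of both groups were sorted 48 hours after transfection, and their RNA was hybridized to Mouse Gene 2.0 ST arrays of Affymetrix. The arrays of each group are labelled biological replicates of this 1 cell line, so the spread covers separate samples of KP1 only. The values are log2 expression after RMA, a procedure that corrects background, equalizes the arrays and summarizes probes, and a difference of 1 is a 2-fold difference.

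Stomatin and its relatives share a domain, named SPFH after stomatin, prohibitin, flotillin and HflK/C. They sit at membranes and form oligomers there, and several bind cholesterol. Flotillins assemble flat microdomains from both of their members, while caveolins, which lack this domain, bend the membrane into flask-shaped caveolae together with cavin coat proteins. Such assemblies gather signaling receptors, ion channels and transporters. Stomatin itself is best known from the red cell membrane, where it binds the glucose transporter encoded by Slc2a1.

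N1ICD acts with the DNA-binding protein RBPJ, so the 250 bases before the start of each member were searched on both strands for TGGGAA, the core letters that RBPJ recognizes. The RefSeq windows at hand (build GRCm38.p6) covered 7 of the 8 members, with 2 for Cav1 and none for Flot1. The letters occurred in 3 of these 8 windows, those of Stoml2, Flot2 and the first of Cav1, and in 21.6% of all 32851 windows of the same length. The windows of Stom (chr2:35337010-35337259, minus strand) and Flot2 (chr11:78037681-78037930, plus strand) are shown because these were members past the threshold described below, 1 without and 1 with the letters, which are in capitals.
Stom: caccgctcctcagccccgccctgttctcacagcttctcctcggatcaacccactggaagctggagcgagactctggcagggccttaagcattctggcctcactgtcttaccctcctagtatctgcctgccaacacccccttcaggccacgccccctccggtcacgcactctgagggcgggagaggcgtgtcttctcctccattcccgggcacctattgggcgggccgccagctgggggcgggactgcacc
Flot2: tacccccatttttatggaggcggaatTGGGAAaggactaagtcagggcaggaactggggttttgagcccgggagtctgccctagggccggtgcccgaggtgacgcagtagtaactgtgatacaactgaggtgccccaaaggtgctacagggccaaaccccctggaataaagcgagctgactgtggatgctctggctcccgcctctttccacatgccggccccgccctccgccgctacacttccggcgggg
The match in Flot2 began 224 bases before the start, that in Cav1 213 bases before it, and that in Stoml2, on the opposite strand, 164 bases before it. A match is a description of letters, and the absence of one from the Stom window says only that they are not in these 250 bases.

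The transfected gene was checked first. Notch1 had a mean log2 value of 6.17 ± 0.19 (SD, n = 3) in control and 7.76 ± 0.29 (SD, n = 3) in N1ICD, and the groups did not overlap. Whether this probe set covers the transfected part is not known here. Array medians over all genes lay between 6.14 and 6.24. Of 8 measured neuroendocrine markers, 7 lay above the array median on all 6 arrays and 1, Neurod1, below it on all 6. The mean level of these markers was 9.46 to 9.56 in control and 9.31 to 9.43 in N1ICD, and 2 rose and 2 fell. Among markers of other cells that use stomatin or caveolin, 0 of 3 erythroid genes changed (limma, adjusted p under 0.05) and their mean level was 5.78 to 6.01 in control and 5.55 to 5.77 in N1ICD; at an unadjusted p under 0.05 1 of them was lower. Of 6 endothelial genes, the receptors Kdr and Tek rose, by 3.04 and 1.06 on the log2 scale. The other 4 did not pass the test and lay below the array median on all 6 arrays. The endothelial mean, which includes Kdr and Tek, was 5.55 to 5.69 in control and 6.28 to 6.46 in N1ICD. Of 6 fibroblast genes 1, Pdgfra, fell, with list means of 5.83 to 5.90 in control and 5.63 to 5.67 in N1ICD, and of 6 macrophage genes 1, Lyz2, rose, with list means of 4.87 to 4.95 and 4.94 to 5.03. The part of any of these markers in the results below was not tested, and in bulk RNA fewer cells of a type and less RNA per cell cannot be told apart.

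The comparison of N1ICD with control asks how active Notch1 changes the genes of a neuroendocrine tumor line. Stom was by far the most different of the 8 genes, both flotillin genes were modestly higher in N1ICD, and the 3 stomatin-like genes overlapped between groups. Both caveolin genes were slightly higher, with groups that did not overlap but nearly touched. In all, 3 of the 8 members (Stom, Flot1 and Flot2) lay past an adjusted p of 0.05 in the fit over all genes, each higher in N1ICD, where 3.82% of all genes were higher, 3.27% lower and 7.10% changed in either direction. Because the set was chosen in this comparison, nothing is read from that count. The groups did not overlap in 5 members, each higher in N1ICD, against 11.1% of all genes higher without overlap, 15.0% lower and 26.1% in either direction. The median difference of the 8 members was 0.20, and that of all genes was -0.02.

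Stom encodes stomatin, a hairpin membrane protein that modulates ion channels and glucose transport. Its log2 value was 6.40, 6.55 and 6.60 in control replicates 1, 2 and 3 and 11.03, 11.41 and 11.32 in N1ICD replicates 1, 2 and 3. Every N1ICD array was far above every control array, and the gap between the highest control and the lowest N1ICD array was 4.43. The mean went from 6.52 ± 0.10 (SD, n = 3) to 11.25 ± 0.20 (SD, n = 3), a difference of 4.74 ± 0.12 (SE), or 26.6-fold. Of all 22180 genes, 9 had a larger rise. All 6 arrays lay above their array median for Stom, but the control values were close to the array medians of 6.14 to 6.24. Background was not measured, so how far the control level lay above it is not known, and the fold difference depends on that level. With 1 array left out in turn, the difference stayed between 4.66 and 4.85.

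**Figure D1:**
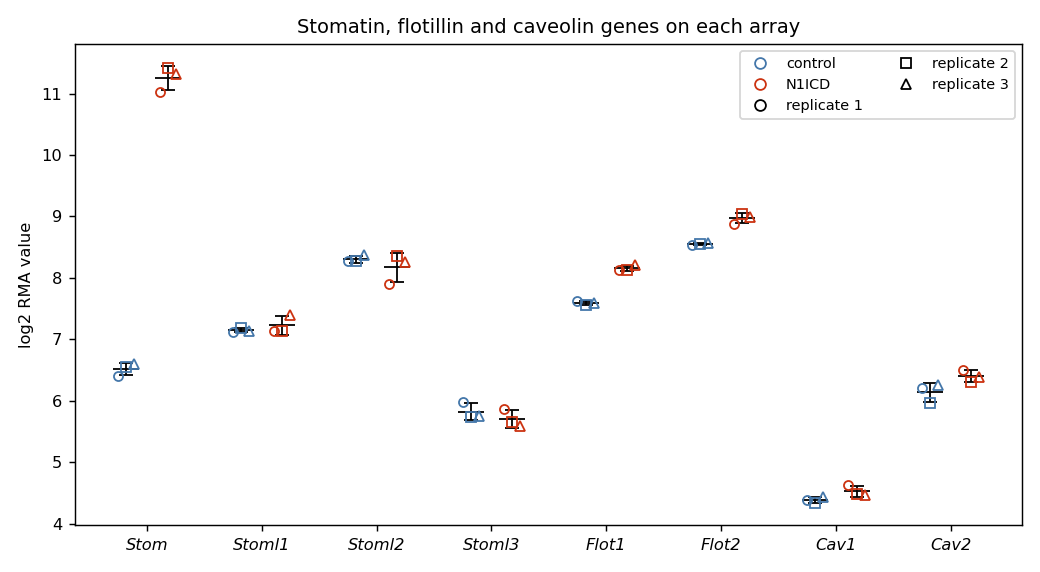
Log2 RMA value (vertical axis) of each of the 8 genes on each array, with control in blue, N1ICD in red and a marker shape per replicate number; black bars are the group mean with the SD over 3 arrays. Stom moves from a control mean of 6.52 to 11.25, while the N1ICD mean of every other gene lies within 0.56 of its control mean. Heights of different genes come from different probe sets and cannot be ranked against each other.

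The stomatin-like genes, which share the SPFH domain with stomatin, did not separate the groups. Stoml1 joins this domain to a sterol carrier domain and sits on late endosomes. Its log2 value was 7.12, 7.18 and 7.14 in the control arrays and 7.14, 7.14 and 7.40 in the N1ICD arrays. Only N1ICD replicate 3 stood above the control range, and the difference of 0.08 ± 0.11 (SE) became -0.01 without it.

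Stoml2 encodes a protein of the mitochondrial inner membrane that binds cardiolipin and prohibitins. Its log2 value was 8.27, 8.28 and 8.37 in control and 7.90, 8.35 and 8.26 in N1ICD. N1ICD replicate 1 was the lowest of the 6 arrays and replicates 2 and 3 lay in or just below the control range. The difference was -0.13 ± 0.13 (SE), and 0.00 without N1ICD replicate 1. A second, dimmer probe set of Stoml2 had 6.71 ± 0.08 (SD, n = 3) in control and 6.79 ± 0.09 (SD, n = 3) in N1ICD, a difference of 0.08 ± 0.10 (SE) in the other direction. Stoml2 was the 1 member with more than 1 such probe set.

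Stoml3 is known from sensory neurons, where it tunes the response to touch. Its log2 value was 5.98, 5.73 and 5.74 in control and 5.86, 5.65 and 5.59 in N1ICD. All 6 values lay below their array median, where RMA compresses differences, and the groups overlapped, with a difference of -0.12 ± 0.12 (SE). Replicate 1 was the highest array of its group in both groups.

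The flotillin genes encode partner proteins that are anchored to the inner face of the membrane by fatty acids and stabilize each other in mixed oligomers. Flot1 had log2 values of 7.63, 7.57 and 7.59 in control and 8.13, 8.13 and 8.20 in N1ICD. All N1ICD arrays were above all control arrays, with a gap of 0.50. The group SDs were 0.03 in control and 0.04 in N1ICD, below the medians over all genes of 0.13 and 0.14. The difference was 0.56 ± 0.09 (SE), or 1.47-fold, and 742 genes had a larger rise. It was 0.51 with equal array medians, the lowest of the alternatives, and between 0.54 and 0.58 with 1 array left out.

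Flot2 had log2 values of 8.53, 8.55 and 8.56 in control and 8.88, 9.04 and 8.995 in N1ICD. Again the groups did not overlap, with a gap of 0.32, and N1ICD replicate 1 was the lowest of its group. The difference was 0.42 ± 0.09 (SE), or 1.34-fold, smaller in size than that of Flot1; the difference between both was not tested. Flot2 was no longer past the threshold with equal array medians (0.37) or without any 1 of control replicates 1, 2 and 3 and N1ICD replicates 2 and 3 (0.41, 0.42, 0.43, 0.39 and 0.41). It was also not past the stricter threshold of 0.01. Stom and Flot1 were past the threshold in each of the 14 alternatives. As the set was chosen for Stom in this comparison, nothing further is read from that.

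**Figure D2:**
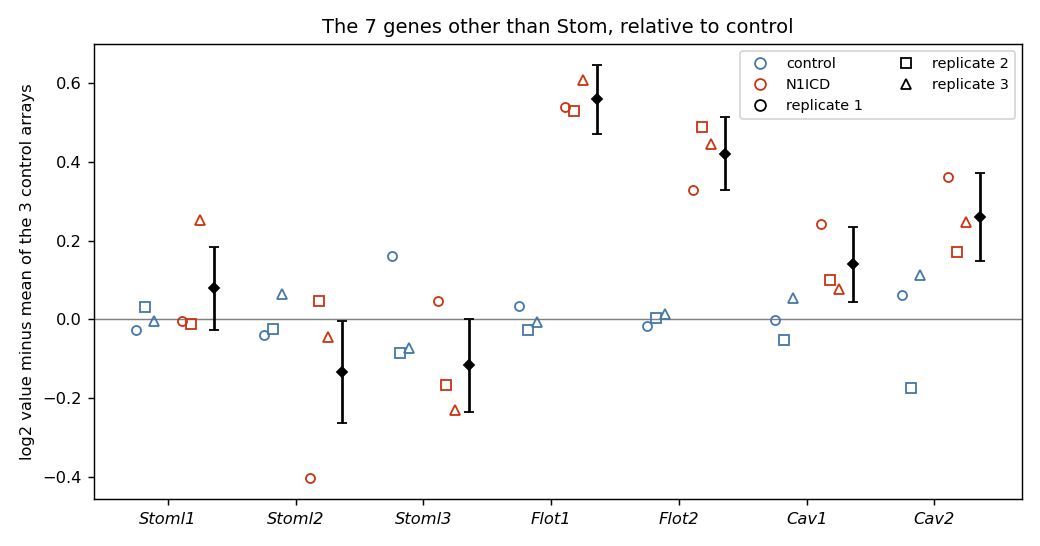
Log2 value minus the mean of the 3 control arrays (vertical axis) for the 7 genes other than Stom, with control in blue, N1ICD in red and a marker shape per replicate number; black diamonds are the difference between group means with its SE. Flot1 (0.56) and Flot2 (0.42) stand clear of their control arrays, Cav1 and Cav2 lie just above them, and the stomatin-like genes overlap.

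The caveolin genes lie next to each other on chromosome 6. Cav1 encodes the protein without which caveolae of non-muscle cells do not form, and Cav2 a partner that reaches the cell surface with it. Cav1 had log2 values of 4.38, 4.34 and 4.44 in control and 4.63, 4.49 and 4.46 in N1ICD. All 6 lay below their array median, and the groups were apart by 0.02 only, less than either SD (0.05 and 0.09). The difference was 0.14 ± 0.09 (SE), and 0.09 with equal array medians. Whether the groups stayed apart with equal array medians is not given here.

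Cav2 had log2 values of 6.20, 5.96 and 6.25 in control and 6.50, 6.31 and 6.38 in N1ICD. Replicate 2 was the lowest of its group in both groups, and the groups were apart by 0.06, less than either SD (0.15 and 0.10). The difference was 0.26 ± 0.11 (SE), or 1.20-fold, and 0.21 with equal array medians, where overlap was likewise not examined. Neither caveolin gene was past the threshold of the fit over all genes in any of the alternatives run for it.

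**Figure D3:**
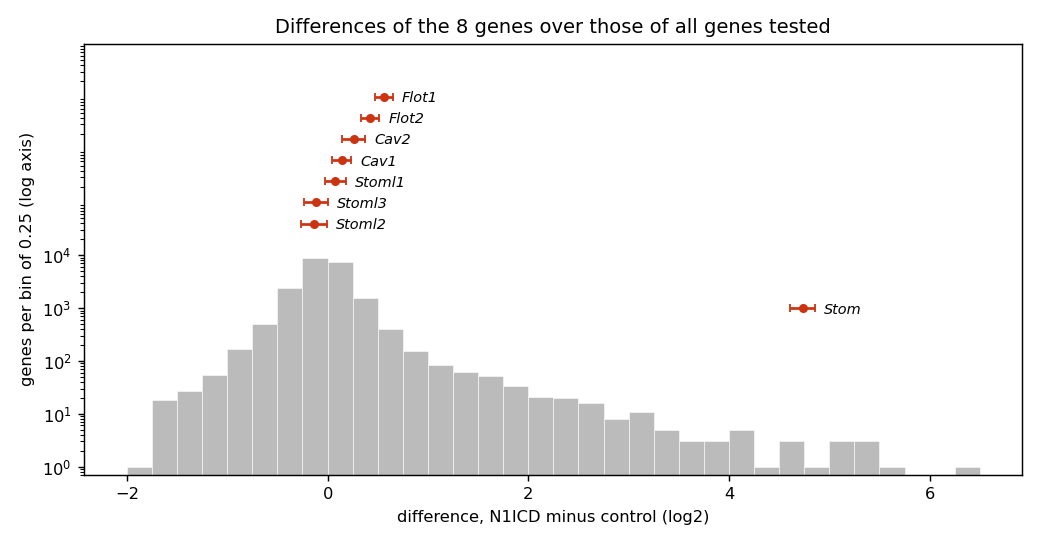
Differences between group means (horizontal axis, log2, N1ICD minus control) of the 8 genes in red, with their SE, over a histogram of the differences of all 22180 genes (vertical axis, genes per bin, log scale). The heights of the red points are set apart for reading only and carry no value; Stom at 4.74 lies in the sparse right tail, and the other 7 lie between -0.13 and 0.56, with Flot1 and Flot2 on the right shoulder, where 742 and 1137 genes had a larger rise.

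The genes with the profile nearest to that of Stom were found by the root mean square distance between log2 values over the 6 arrays, after the control mean of each gene was taken off. In order, they were the membrane-bound chemokine Cx3cl1 (distance 0.13), Olfml2a (0.16), the repressors Hey1 (0.29) and Hes5 (0.33), both classic Notch targets, and the matrix protein Tnc (0.39). Their differences between N1ICD and control were 4.72 for Cx3cl1, 4.78 for Olfml2a, 4.42 for Hey1, 5.11 for Hes5 and 5.12 for Tnc. The distance is set mostly by the size of the rise, so this describes genes that rose by a like amount. For Hes5 the difference was 2.91 over the mean of its 2 probe sets. Within the N1ICD group, replicate 1 was the lowest and replicate 2 the highest for both Stom and Cx3cl1, whereas replicate 1 was the highest for Olfml2a and Hey1.

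**Figure D4:**
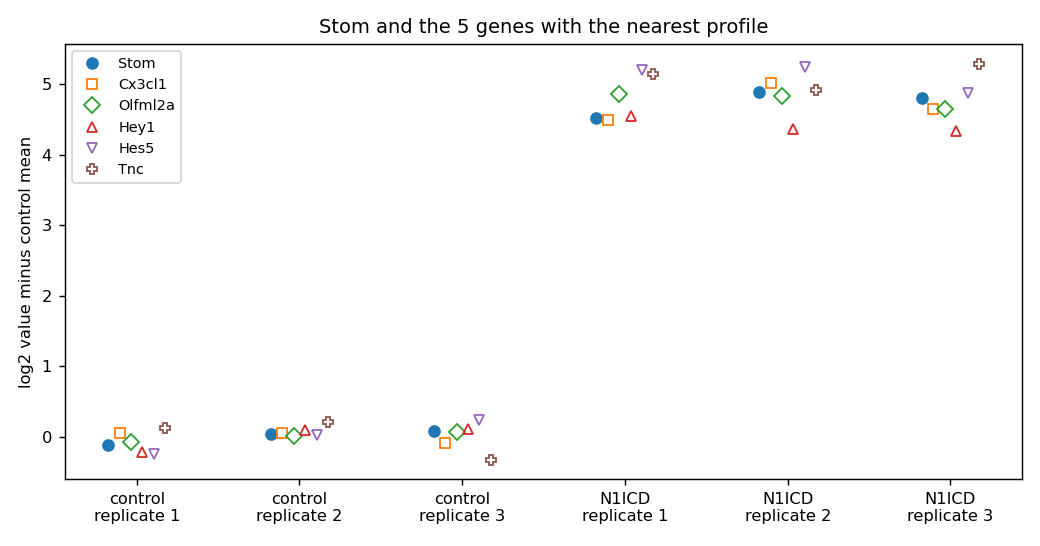
Log2 value minus the control mean (vertical axis) on each of the 6 arrays for Stom (filled circles) and the 5 genes nearest to it (open markers, 1 shape and color per gene). On the control arrays all 6 genes lie near 0, and on the N1ICD arrays all lie above 4, with Hey1 lowest on replicates 2 and 3.

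Genes that work with these proteins were measured in 7 lists (58 genes), which the choice of the set did not use. The lists were drawn up with earlier results of these data known, so their counts are a description only. Of these genes 5 rose and 3 fell, together 13.8%, against 7.10% of all genes tested, and 50 did not pass the test (limma, adjusted p under 0.05). Their median difference was -0.01. The count of 8 fell when any 1 array was left out. So did the count over all genes, from 1574 to between 823 and 1230. Leaving out control replicate 1, 2 or 3 gave 4, 3 or 4 genes, and leaving out N1ICD replicate 1, 2 or 3 gave 6, 3 or 5. Members of a list that did not pass may still differ by less than 3 arrays per group can show. Counts at an unadjusted p under 0.05, above and below, have no matching share of all genes beside them. Nothing is therefore read from those counts.

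Among 9 partners of stomatin and its relatives, 1 rose and 0 fell (list median 0.02), and the counts at an unadjusted p under 0.05 were also 1 and 0. Asic2, a subunit of acid-sensing ion channels, had log2 values of 5.61, 5.73 and 5.56 in control and 6.995, 7.08 and 7.28 in N1ICD. These groups were far apart, and Asic2 rose 2.80-fold (1.49 ± 0.11 SE, limma adjusted p = 0.000132). The control values lay below the array medians of 6.14 to 6.24, and the fold depends on a background that was not measured. Asic2 was past the threshold in each of the 14 alternatives. The glucose transporter gene Slc2a1, named as the best-known partner of stomatin after its value was seen, had a difference of 0.02 ± 0.11 (limma adjusted p = 0.957). The other channel genes of the list, Asic1, Asic3, Asic4, Piezo1 and Piezo2, also named after their values were seen, had differences between -0.26 and 0.22 and did not pass the test.

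Of 12 genes of the caveola coat, 0 rose and 1 fell (list median -0.08), while at an unadjusted p under 0.05 2 were higher and 3 lower. Cavin4, a cavin best known from muscle, fell by 0.62 ± 0.15 on the log2 scale (limma adjusted p = 0.0473). This call was lost when any 1 array except control replicate 3 was left out (highest adjusted p = 0.145), with the replicate number as a block and with quantile normalization again. Cavin1, the coat protein that caveolae require, and Cavin3, both named after their values were seen, had differences of 0.63 ± 0.16 (limma adjusted p = 0.0533) and 0.49 ± 0.12 (limma adjusted p = 0.0566). For Cavin1 the 3 N1ICD arrays (6.32, 6.58 and 6.40) lay above the 3 control arrays (5.67, 6.15 and 5.59), as they did for Cavin3, but neither passed the test. In the other direction and named in the same way, Pacsin1, which binds and curves membranes, had -0.54 ± 0.14 (limma adjusted p = 0.0525) and Cav3, the muscle caveolin, -0.54 ± 0.19 (limma adjusted p = 0.159), with N1ICD arrays below all control arrays, and neither passed the test.

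Of 5 flotillin partners and raft proteins, 1 rose and 1 fell (list median 0.27), while at an unadjusted p under 0.05 3 were higher and 1 lower. The kinase Fyn, which attaches to the inner face of microdomains, had 8.82, 8.66 and 8.78 in control and 9.27, 9.25 and 9.31 in N1ICD. It rose 1.44-fold (0.53 ± 0.09 SE, limma adjusted p = 0.0127), a call lost without control replicate 2 (adjusted p = 0.0608). Sorbs2, an adaptor of the family that links flotillin to the cytoskeleton, had 7.93, 7.78 and 7.79 in control and 7.09, 6.33 and 6.97 in N1ICD. It fell by 1.04 ± 0.19 on the log2 scale (limma adjusted p = 0.0154), with N1ICD replicate 2 the lowest array. The difference was -0.83 over the mean of its 2 probe sets. The call held with any 1 array left out (highest adjusted p = 0.0494) but not at an adjusted p under 0.01.

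Of 10 tetraspanins, proteins that organize a different kind of membrane microdomain, 2 rose and 1 fell (list median -0.03). Their counts at an unadjusted p under 0.05 were 3 higher and 2 lower. Cd82 rose 1.69-fold (0.76 ± 0.18 SE, limma adjusted p = 0.0393) and Cd151 1.47-fold (0.55 ± 0.12 SE, limma adjusted p = 0.0328). Both calls were lost when any 1 array except N1ICD replicate 1 was left out (highest adjusted p = 0.112 for Cd82 and 0.116 for Cd151), and that of Cd151 also with equal array medians. Tspan4 fell by 0.38 ± 0.09 on the log2 scale (limma adjusted p = 0.0463), a call lost whichever array was left out (adjusted p up to 0.169) and with the replicate number as a block.

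Of 13 genes that make, move or break down cholesterol and sphingolipids, the lipids of these microdomains, 1 rose and 0 fell. In this list 11 had a higher mean in N1ICD, as had 45.5% of all genes (list median 0.27, against -0.02 for all genes). At an unadjusted p under 0.05, 6 were higher and 2 lower. Abca1, the transporter that exports cholesterol, rose 1.69-fold (0.76 ± 0.15 SE, limma adjusted p = 0.0228), a call lost when control replicate 2, control replicate 3, N1ICD replicate 1 or N1ICD replicate 2 was left out (adjusted p up to 0.0906). None of 3 measured further SPFH genes and 0 of 6 mitochondrial partners of Stoml2 passed the test, against 7.10% of all genes, and all 9 had a lower mean in N1ICD, as had 54.5% of all genes. The largest differences were those of Erlin1, an endoplasmic reticulum protein (-0.29 ± 0.13, limma adjusted p = 0.244), and the mitochondrial protease Parl (-0.23 ± 0.10, limma adjusted p = 0.247). At an unadjusted p under 0.05, 2 of these 9 genes were lower.

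**Figure D5:**
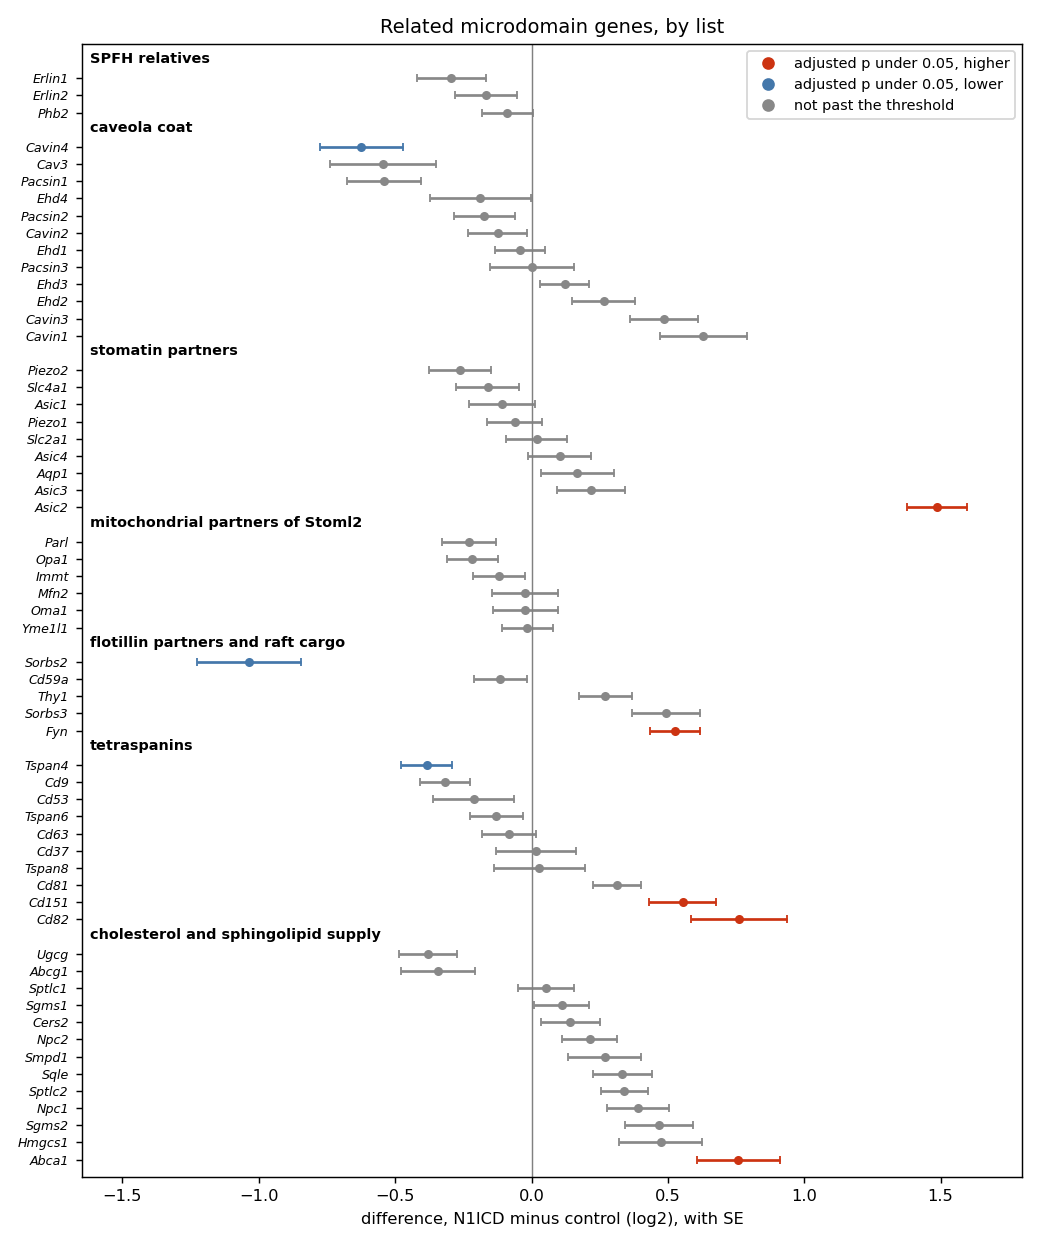
Difference between group means (horizontal axis, log2, N1ICD minus control) with its SE for each of the 58 related genes, grouped by list; red and blue mark genes past an adjusted p of 0.05 that were higher or lower, grey those not past it. Asic2 (1.49) stands apart on the right and Sorbs2 (-1.04) on the left, and most genes of every list lie within 0.63 of 0.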

How the data were processed

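RNA of 6 KP1 samples was measured on 1 array each. The authors deposited log2 values per probe set after RMA, per the submitters' processing notes, which give no version. Genome build and log base are not given in the sources used here, and base 2 was assumed. Because RMA equalizes the arrays, an overall rise or fall of RNA in the cells is invisible. There were 41345 probe sets, of which 23521 have 1 gene symbol in the platform annotation, 1814 several and 16010 none listed; the brightest per gene left 22180 genes. Background was not measured, so no probe set could be called absent.

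Differences (N1ICD minus control) were fitted by limma 3.58.1 under R 4.3.3, with lmFit, eBayes and two-sided p-values adjusted by Benjamini-Hochberg over all genes (threshold 0.05). Values were read with version 1.17.8 of data.table, and figures drawn with matplotlib 3.10.9. On simulated data with 22180 genes, 67, 67 and 66 genes were changed by 0.5, 1 and 2 (log2). Of these, 16.4%, 77.6% and 97.0% were called. There were 12 false calls among 139, and 0 calls in data without any change. The real comparison gave 1574 calls, far more than were simulated, so the rates may differ there. The replicate numbers were not treated as pairs: deviations from the group means correlated by 0.23, 0.01 and 0.20 for numbers 1, 2 and 3, and pairing required more than 0.1 in all 3. The members and gene lists were chosen with earlier results of these data known. Named were all members, in each related list up to 4 genes past the threshold by size (or the largest difference where none was), and the 5 genes nearest to Stom. Slc2a1, the other channel genes, Cavin1, Cavin3, Pacsin1 and Cav3 lie outside this rule and were named after their values were seen. The alternatives concern normalization, dim genes, probe sets, the variance model, array weights, the block, the threshold and single arrays. Promoter windows came from RefSeq (GRCm38.p6). Some listed genes are not reported here.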

Additional observations from a re-analysis of the deposited data

How the results depend on the processing

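The differences of Stom, Flot1, Flot2, Cav1, Cav2 and Stoml3 kept their sign in all alternatives run, while Stoml1 and Stoml2 changed theirs without 1 array, as given above. Between 2 and 3 members were past the threshold with 1 array left out, and 3 with the replicate number as a block. These counts are a description too, since the set was chosen in this comparison. Over all genes, 1574 changed (848 higher, 726 lower). With equal array medians the split was 730 higher and 948 lower. With the replicate block 1518 changed, at an adjusted p under 0.01 668 changed, and with 1 array left out 823 to 1230. The count was 2276 with an intensity trend and robust eBayes. Of the 58 related genes 8 changed in the fit described, 9 with the replicate block, 18 of 55 without the dimmest genes (those under the lower quartile of mean level), 20 with an intensity trend and robust eBayes, 13 with array weights, 1 at an adjusted p under 0.01, and 3 to 6 with 1 array left out. The causes of these shifts were not tested, apart from the fewer arrays or genes and the stricter threshold that some of them consist of. The block removed the calls of Cavin4 and Tspan4. Signal over background was not given, which limits Cav1 and Stoml3 most, both below the array median on all 6 arrays. Cav1 was left out with the dimmest genes.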
